A study of Mus musculus with 8 samples.

Results

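Microglia genes in the P7 brain were followed through 9 transcripts, *Cx3cr1*, *P2ry12*, *Csf1r*, *C1qa*, *C1qb*, *C1qc*, *Tmem119*, *Aif1* and *Trem2*, each taken as the row of the count table that bears its symbol. All 9 were found among the 24015 entries of the table, and all 9 passed the low-count filter that left 15588 genes for testing. The study removed 1b, a regulatory stretch without protein code in *Scn1a*, the gene for a neuronal sodium channel subunit. Each library came from 1 mouse of the C57BL/6N strain at postnatal day 7. The WT group (n = 2) was all male and had 0 alleles with the deletion, the 1b+/- group (n = 4) was 2 males and 2 females with 1 such allele, and the 1b-/- group (n = 2) was all female with 2. The deletion was made with Cas9 in oocytes and bred as a single line by crosses to wildtype mice. It was present in every cell type, so no genotype is a model of a change in microglia alone. The sample labels call the tissue hippocampus and the methods of the study call it forebrain, so the region is uncertain.

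Microglia are the resident macrophages of the brain. They arise outside the brain, depend on CSF1R signalling for survival, survey neurons with processes steered by purinergic and fractalkine receptors, and clear debris and synapses with the help of complement. In the first postnatal week they are still multiplying and maturing, and *Tmem119* and *P2ry12* are among the genes that mark the adult surveying state. In whole tissue, fewer microglia and less RNA per microglial cell cannot be told apart.

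Library totals ran from 2947770 to 20878772 counts, so that 3 counts, the limit set for a gene not detected, corresponded to 0.145 to 1.0 CPM, the count of a gene relative to a library's total after scaling for composition. These limits cover counting error only. *Scn1a*, the targeted gene, was at 40.5 and 45.2 CPM in WT, 15.7 to 26.7 CPM in 1b+/- and 2.0 and 3.18 CPM in 1b-/- libraries, in the order of the labels. Sex and genotype cannot be told apart between WT and 1b-/-. Several libraries stood apart in tissue content. The summed level of 9 epithelial genes was 47.5 and 174 CPM in WT and at most 7.68 CPM elsewhere. The summed level of 9 meningeal fibroblast genes reached 2132 CPM in 1b+/- replicate 1, with 592 to 1208 CPM elsewhere, and that of 9 choroid plexus genes ran from 31.8 to 1022 CPM. Summed levels of the gene lists named for hippocampus (1124 to 2309 CPM), neocortex (1219 to 1982 CPM) and thalamus (194 to 474 CPM) were all well above 0 in every library. *Neurod6*, at a mean of 1568 CPM, made up most of the hippocampal sum. *Slc17a6*, which led the thalamic list, was also on the list of neuronal genes. These sums therefore do not settle the region.

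The 9 transcripts had low levels that differed widely among themselves. Compared per length of annotated exon, the order of mean level over the 8 libraries was *C1qb* (9.40 ± 2.86 CPM per kb, SD), *C1qa* (7.75 ± 2.56), *P2ry12* (5.80 ± 1.18), *Csf1r* (2.93 ± 0.54), *Cx3cr1* (2.55 ± 0.51), *C1qc* (2.51 ± 1.15), *Tmem119* (0.664 ± 0.434), *Aif1* (0.597 ± 0.233) and *Trem2* (0.183 ± 0.0994), all on the CPM per kb scale with n = 8. Neighbours in this order had overlapping ranges over the libraries, except that the lowest value of *P2ry12* (4.32 CPM per kb) lay above the highest of *Csf1r* (3.70 CPM per kb). *Tmem119*, *Aif1* and *Trem2* were held by 2 to 58 counts per library, so their levels carry large counting error. *Aif1*, with 2 counts in 1b+/- replicate 4, was under the 3 counts taken here as the limit of detection.

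The *C1qb*, *C1qc* and *C1qa* genes lie side by side on the minus strand of chromosome 4 (mm9, chr4:136436044-136442102, chr4:136445719-136448980 and chr4:136451832-136454718). Of the other members, *P2ry12* lies at chr3:59020193-59066753, *Cx3cr1* at chr9:119957811-119977400, *Tmem119* at chr5:114243738-114250525 and *Aif1* at chr17:35307936-35313013, all on the minus strand, and *Trem2* at chr17:48485726-48493472 on the plus strand. *P2ry12* lies inside *Med12l*, a gene of the opposite strand, without a shared exonic base. *Csf1r* shares 871 exonic bases with *Hmgxb3* of the opposite strand. Libraries were stranded, but the strand setting of the counting step is not given in the sources used here, so the *Csf1r* counts are uncertain to that extent.

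Start regions of 6 members were present in RefSeq's promoter table (GRCm38.p6), and *C1qa*, *Csf1r* and *Tmem119* had no entry. The 250 bases upstream of the start are shown for 2 members that followed each other across the libraries (*C1qb* and *Trem2*) and for *P2ry12*, which ran against the other 8 (below). They lie at chr4:136886201-136886450 (minus strand), chr17:48346151-48346400 (plus strand) and chr3:59262986-59263235 (minus strand). Capitals mark GAGGAA or its reverse complement TTCCTC, letters found in sites of the myeloid factor PU.1.
C1qb: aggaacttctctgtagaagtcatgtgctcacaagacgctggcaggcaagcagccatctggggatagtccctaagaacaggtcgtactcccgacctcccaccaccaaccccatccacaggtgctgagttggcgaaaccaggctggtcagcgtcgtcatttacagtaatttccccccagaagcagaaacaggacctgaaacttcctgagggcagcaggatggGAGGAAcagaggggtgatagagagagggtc
Trem2: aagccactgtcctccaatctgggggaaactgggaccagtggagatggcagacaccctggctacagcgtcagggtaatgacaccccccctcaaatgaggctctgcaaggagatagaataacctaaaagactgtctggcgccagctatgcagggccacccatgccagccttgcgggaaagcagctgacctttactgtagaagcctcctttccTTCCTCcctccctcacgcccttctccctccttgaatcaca
P2ry12: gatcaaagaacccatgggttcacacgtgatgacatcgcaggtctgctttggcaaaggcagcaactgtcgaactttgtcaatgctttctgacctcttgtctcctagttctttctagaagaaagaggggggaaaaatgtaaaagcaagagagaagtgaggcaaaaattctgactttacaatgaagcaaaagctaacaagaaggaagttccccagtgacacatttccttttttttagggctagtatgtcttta
*C1qb* held 1 match, with its first base 30 bases before the start (-30), and *Trem2* held 1 at -40. *C1qc* (-193) and *Aif1* (-7) also held 1 match each, whereas *P2ry12* and *Cx3cr1* held 0. Among 32851 windows of this length in the table, 23.3% held the letters on either strand, and 25.9% of 27025 genes had at least 1 window with them. A match describes the letters only, and *Cx3cr1*, without one, had a higher correlation with *C1qb* over the libraries than *Trem2* had.

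The receptors were considered first. *Cx3cr1*, the receptor for neuronal fractalkine, was at 7.11 and 8.58 CPM in WT, at 11.5, 9.39, 8.77 and 13.02 CPM in 1b+/- replicates 1 to 4, and at 9.30 and 8.26 CPM in 1b-/-. All 4 1b+/- libraries lay above both WT libraries, and the 1b-/- libraries overlapped WT. The log2 fold change was 0.42 (SE 0.23, 95% interval -0.083 to 0.93) in 1b+/- against WT. *Csf1r*, the receptor on which microglial survival depends, was at 11.7 and 17.9 CPM in WT, at 19.3, 12.4, 15.5 and 18.03 CPM in 1b+/-, and at 13.7 and 14.02 CPM in 1b-/-. The genotypes overlapped, and the log2 fold change was 0.15 (SE 0.24, 95% interval -0.36 to 0.67) in 1b+/- and -0.079 (SE 0.28, 95% interval -0.69 to 0.53) in 1b-/- against WT.

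*P2ry12*, the ADP receptor that guides microglial processes, was at 16.5 and 10.9 CPM in WT, at 11.2, 17.3, 16.1 and 13.02 CPM in 1b+/-, and at 15.2 and 10.3 CPM in 1b-/-. Each genotype held high and low libraries, and the spread within a genotype exceeded any difference between their means. Its log2 fold change against WT was 0.064 (SE 0.25, 95% interval -0.49 to 0.62) in 1b+/- and -0.098 (SE 0.30, 95% interval -0.75 to 0.56) in 1b-/-. *Trem2*, a lipid-sensing receptor of phagocytic microglia, was at 0.496 and 0.766 CPM in WT, at 1.19, 0.606, 0.582 and 2.0 CPM in 1b+/-, and at 0.857 and 0.751 CPM in 1b-/-. These rest on 3 to 18 counts per library, and the 95% interval of the 1b+/- to WT difference ran from -0.91 to 2.20 on the log2 scale.

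The 3 chains of C1q form the protein that opens the classical complement pathway and tags synapses for removal. In 1b+/- against WT, *C1qb* and *C1qc* had larger estimates than *Cx3cr1*, *Csf1r* and *P2ry12*, whereas *C1qa* (0.28) was below *Cx3cr1* (0.42). Larger estimates were not particular to C1q. Of the members with few counts, *Tmem119* (1.10) and *Trem2* (0.64) lay above *C1qb* (0.63), and *Aif1* (-0.027) did not. *C1qb* was at 7.19 and 8.28 CPM in WT, at 16.04, 8.48, 9.50 and 14.02 CPM in 1b+/-, and at 9.79 and 8.51 CPM in 1b-/-. Every library with a deleted allele lay above both WT libraries, by a narrow margin for 1b+/- replicate 2 and 1b-/- replicate 2. *C1qc* was at 1.98 and 3.83 CPM in WT, at 7.92, 3.03, 4.70 and 8.35 CPM in 1b+/-, and at 4.16 and 4.76 CPM in 1b-/-. Both 1b-/- libraries and 3 of 4 1b+/- libraries lay above WT, while 1b+/- replicate 2 fell between the WT libraries. *C1qa* was at 5.71 and 8.73 CPM in WT, at 11.95, 4.34, 7.61 and 11.4 CPM in 1b+/-, and at 8.57 and 6.26 CPM in 1b-/-, and its genotypes overlapped.

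In 1b+/- against WT the log2 fold change was 0.63 (SE 0.28, 95% interval 0.0043 to 1.25) for *C1qb*, 1.05 (SE 0.44, 95% interval 0.080 to 2.02) for *C1qc* and 0.28 (SE 0.37, 95% interval -0.54 to 1.10) for *C1qa*. With the quasi-likelihood test of edgeR, *C1qb* had an unadjusted p of 0.0487 and *C1qc* of 0.0362, and every member had an adjusted p of 0.9999. Without WT replicate 1 the unadjusted p rose to 0.215 for *C1qb* and 0.306 for *C1qc*, and without 1b+/- replicate 1 to 0.142 and 0.0944. The 3 chains in 1b-/- against WT had log2 fold changes of 0.26 (95% interval -0.47 to 0.99), 0.66 (95% interval -0.48 to 1.79) and 0.086 (95% interval -0.88 to 1.05) in the same order. The *C1qc* estimate depended on single WT libraries, at 0.60 without WT replicate 1 and 1.54 without WT replicate 2 in 1b+/- against WT, and at 0.21 and 1.15 in 1b-/- against WT. *C1qb* was at 0.41 without 1b+/- replicate 1 in the former, and at 0.16 without WT replicate 1 and 0.14 without 1b-/- replicate 1 in the latter.

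*Tmem119*, a membrane protein of resident microglia, was at 0.744 and 1.23 CPM in WT, at 3.83, 1.21, 1.26 and 1.67 CPM in 1b+/-, and at 0.612 and 1.75 CPM in 1b-/-. A single library, 1b+/- replicate 1, held the high value, and the log2 fold change in 1b+/- against WT was 1.10 (SE 0.66, 95% interval -0.34 to 2.53). *Aif1*, which encodes the actin-binding protein IBA1 used to stain microglia, was at 0.827 and 1.07 CPM in WT, at 1.45, 0.303, 1.02 and 0.668 CPM in 1b+/-, and at 1.22 and 0.751 CPM in 1b-/-. No genotype stood apart, and the log2 fold change of -0.027 had a 95% interval from -1.52 to 1.47 at 2 to 22 counts per library.

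**Figure D1:**
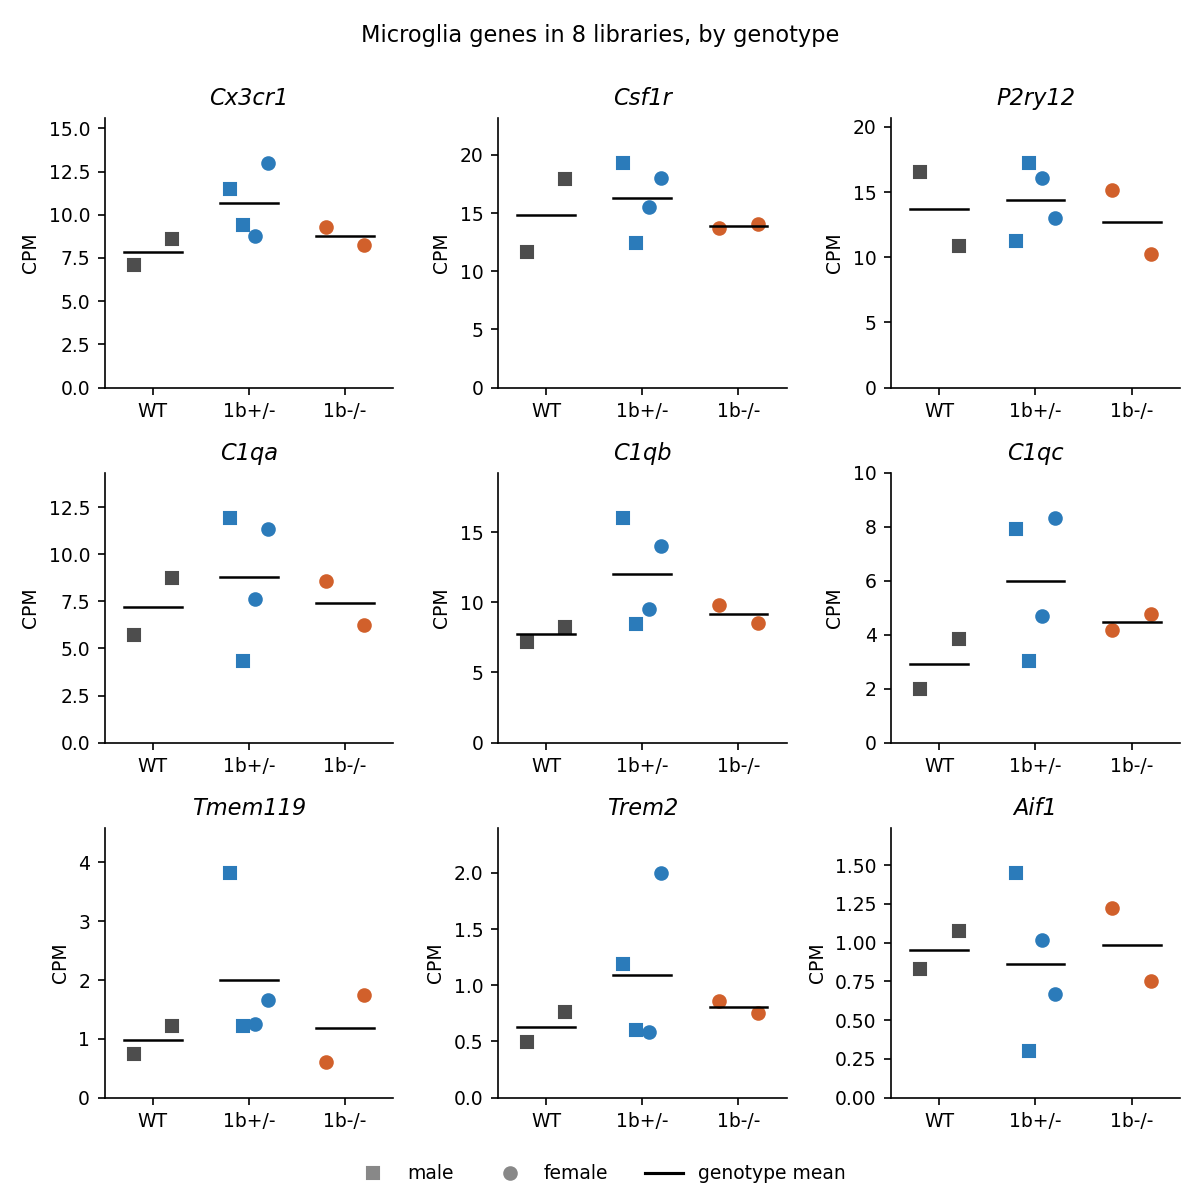
Level of each of the 9 microglia genes in CPM (scaled counts, linear axis from 0) in 2 WT, 4 1b+/- and 2 1b-/- libraries; squares are males, circles females and the line is the genotype mean. The 1b+/- libraries spread least for *Cx3cr1*, *Csf1r* and *P2ry12*, and *C1qb* is the only panel in which every library with a deletion lies above both WT libraries.

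None of the 9 members passed an adjusted p of 0.05 in any of 5 comparisons by edgeR, by its likelihood ratio test or by DESeq2. Of all genes tested, 0.0834% passed in 1b+/- against WT, 0.00642% in 1b-/- against WT, 0.00642% in 1b-/- against 1b+/-, 0.0385% per deleted allele and 0.0321% in females against males within 1b+/-. At an unadjusted p under 0.05, 2 of 9 members (*C1qb* and *C1qc*) were counted in 1b+/- against WT by edgeR's quasi-likelihood test, against 4.34% of all genes, and 1 of 9 by DESeq2 and by the likelihood ratio test. In the other 4 comparisons 0 of 9 were counted at that level, where the shares of all genes were 1.64% (1b-/- against WT), 1.23% (1b-/- against 1b+/-), 1.73% (per deleted allele) and 2.66% (females against males).

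The groups of 1b+/- and WT libraries did not overlap for 2 of 9 members (*Cx3cr1* and *C1qb*, both higher in 1b+/-), against 12.3% of all genes in either direction. Those of 1b-/- and WT did not overlap for 2 of 9 (*C1qb* and *C1qc*, both higher in 1b-/-), against 23.6% of all genes, and those of 1b-/- and 1b+/- for 0 of 9, against 7.39%. The comparisons with WT share the WT libraries. For 1b-/- against WT the share of members was thus near that of all genes.

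Estimates in 1b+/- were above WT for 8 of 9 members, with a median log2 fold change of 0.42 beside 0.012 for all genes. Of the estimates in 1b-/- against WT, 7 of 9 were above, with a median of 0.17 beside -0.0056. Between 1b-/- and 1b+/-, 8 of 9 were below, with a median of -0.24 beside -0.0043. The medians therefore placed 1b+/- highest and 1b-/- between, an order that does not follow the number of deleted alleles. Without WT replicate 1 the number above WT was 6 of 9 in 1b+/- (median 0.32) and 5 of 9 in 1b-/- (median 0.043), and without 1b-/- replicate 1 it was 5 of 9 in 1b-/- (median 0.083). Per deleted allele the median was 0.097 with 7 of 9 above 0, and -0.021 with 2 of 9 above 0 without WT replicate 1. In females against males within 1b+/- it was 0.054 with 6 of 9 above 0, but 0.41 without 1b+/- replicate 1, -0.41 without replicate 2, 0.18 without replicate 3 and -0.24 without replicate 4, so that its direction rested on single libraries.

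**Figure D2:**
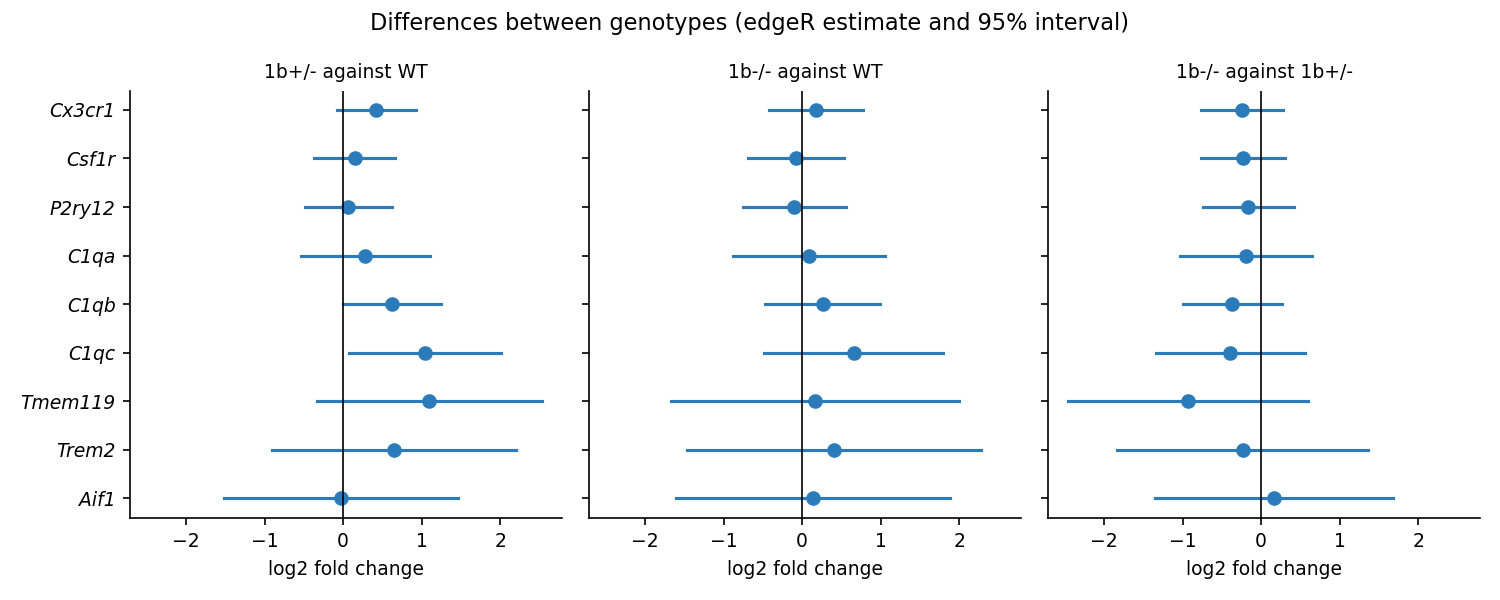
Estimated log2 fold change (point) and its 95% interval (bar) from edgeR for the 9 microglia genes in 3 comparisons of genotypes; 0 means no difference. Only the intervals of *C1qb* and *C1qc* in 1b+/- against WT exclude 0, and intervals are widest for *Tmem119*, *Trem2* and *Aif1*.

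Summed over the 9 members, the level was 52.3 and 61.3 CPM in WT, 84.4, 57.1, 65.1 and 82.1 CPM in 1b+/- replicates 1 to 4, and 63.4 and 55.3 CPM in 1b-/-. The genotype means were 56.8 ± 6.39 (SD, n = 2), 72.2 ± 13.3 (SD, n = 4) and 59.4 ± 5.71 (SD, n = 2) CPM. The higher 1b+/- mean came from replicates 1 and 4, a male and a female, whereas replicate 2 lay within the WT range. Replicate 4 was the shallowest library of all, with 2947770 counts in total and 246 over the 9 members. Replicate 1 held the highest value of 5 of 9 members and replicate 4 of 3 of 9, while 15.3% and 18.2% of all genes had their highest value there. WT replicate 1 held the lowest value of 5 of 9 members, beside 11.3% of all genes.

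Variation within 1b+/- was wide relative to counting error. The highest library exceeded the lowest by 2.75-fold for *C1qa*, 1.89-fold for *C1qb* and 2.75-fold for *C1qc*, and the coefficients of variation were 40.2%, 30.0% and 42.7% where counting alone would give 12.7%, 10.6% and 15.2%. *Cx3cr1*, *P2ry12* and *Csf1r* varied less, by 1.48-fold, 1.54-fold and 1.56-fold. For *Aif1* the coefficient of variation of 57.1% was close to the 48.1% of counting error alone.

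Across the libraries of all genotypes, the 8 members other than *P2ry12* moved together to differing degrees, and *P2ry12* ran against them. Over the 8 libraries, all 28 pairs of members without *P2ry12* had a positive Pearson r of log2(CPM + 1), from 0.061 to 0.92 with a median of 0.71. All 8 pairs with *P2ry12* were negative, from -0.65 (*Csf1r*) to -0.23 (*Cx3cr1*) with a median of -0.45. *C1qb* followed *C1qc* at 0.92, *Cx3cr1* at 0.91 and *Trem2* at 0.83, and *Aif1* was the weakest follower of the remaining members, with an r of 0.38 to the sum of the others. The r of *P2ry12* with the sum of the other 8 was -0.52, and between -0.74 and -0.40 when each library was left out in turn. These are descriptions over 8 libraries that share their scaling and differ in depth, and single values of r this weak are no finding.

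**Figure D3:**
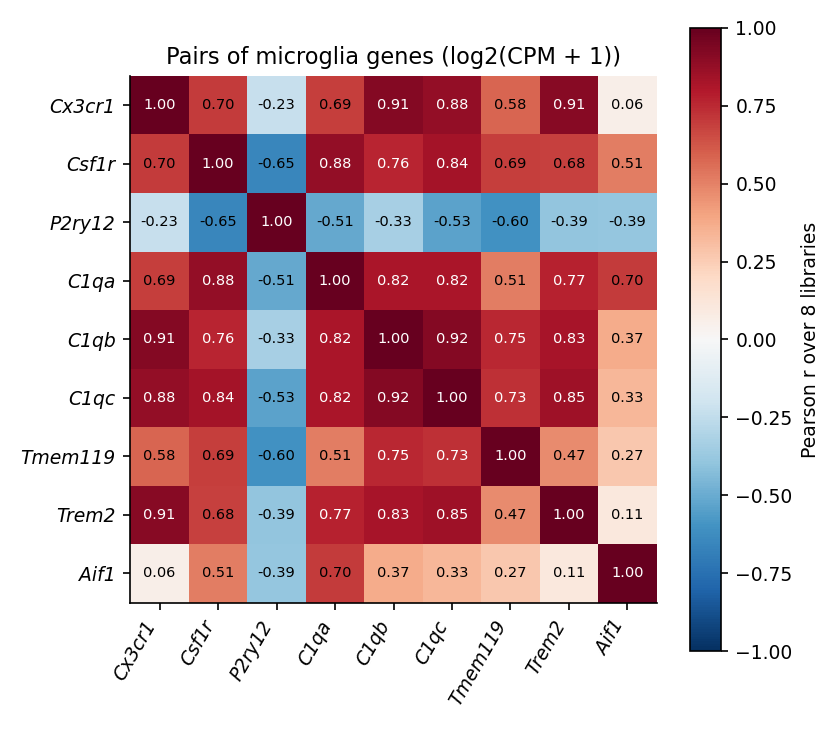
Pearson r of log2(CPM + 1) over the 8 libraries for each pair of microglia genes, on a colour scale from -1 (blue) to 1 (red). The *P2ry12* row and column are negative throughout and every other pair is positive.

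The split between *P2ry12* and the C1q genes can also be described by a ratio of counts, which needs no scaling. Such a ratio varies between libraries even where the genes are unrelated. It also uses the same counts, so it is no separate support for the split. The ratio of *C1qa*, *C1qb* and *C1qc* counts to *P2ry12* counts was 0.90 (95% exact binomial interval 0.732 to 1.11) in WT replicate 1 and 1.92 (1.43 to 2.59) in WT replicate 2. In 1b+/- replicates 1 to 4 it was 3.20 (2.69 to 3.82), 0.918 (0.735 to 1.15), 1.36 (1.17 to 1.57) and 2.59 (1.77 to 3.85). In 1b-/- replicates it was 1.48 (1.18 to 1.88) and 1.90 (1.29 to 2.85). The WT libraries differed from each other beyond their counting intervals, as did 1b+/- replicates 1 and 4 from replicate 2, while every genotype overlapped the others. *P2ry12* made up 13.3% to 31.7% of the counts of the 9 members in a library.

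**Figure D4:**
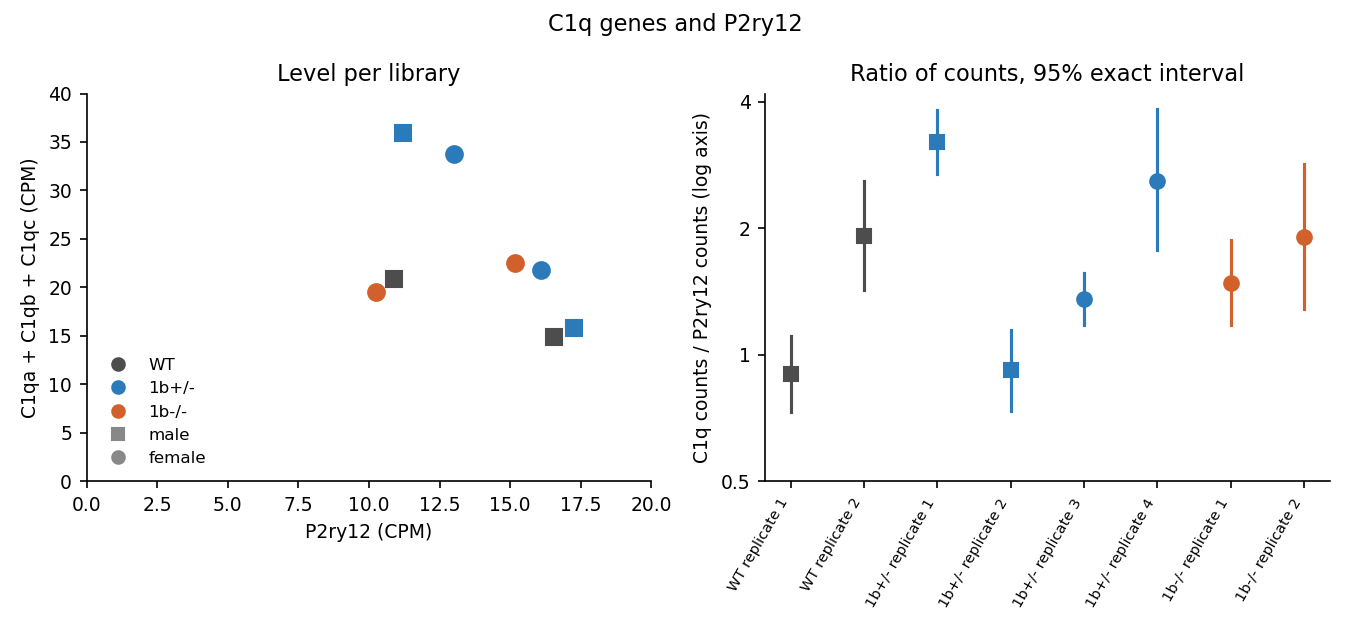
Left, summed level of the 3 C1q genes against the level of *P2ry12* (both in CPM) in 8 libraries. Right, ratio of C1q counts to *P2ry12* counts in each library on a log axis with its 95% exact interval, which covers counting error only; the ratio runs from 0.90 to 3.20 and varies as much within WT and 1b+/- as between genotypes.

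Other measures moved with this split. *P2ry12* had an r of 0.81 with the summed level of 7 hippocampal genes, whereas the other 8 members had r from -0.91 (*Tmem119*) to -0.40 (*Aif1*). That sum was made up mostly of *Neurod6*. Taken singly, 3 of those 7 genes had a positive r with *P2ry12*, with a median of -0.073. The pattern was not particular to hippocampal genes. With the summed level of 7 neocortical genes *P2ry12* had an r of 0.69, and the other 8 members had r from -0.91 (*Tmem119*) to -0.31 (*Aif1*). Taken singly, 6 of the 7 neocortical genes had a positive r with *P2ry12*, with a median of 0.46. With the summed level of 9 meningeal fibroblast genes *P2ry12* had an r of -0.24 and the others 0.37 to 0.72. Each library also showed a tilt of its levels with transcript length, a Spearman rho of -0.233 to 0.283 over 10443 genes, and this tilt had an r of 0.63 with *P2ry12* and of -0.70 to -0.10 with the others. *Med12l*, the host gene of *P2ry12*, was at 39.7 to 50.1 CPM and had an r of -0.63 with it. The part of dissection, transcript length or meningeal tissue in the split was not tested.

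The ligands and partners of these receptors gave no difference past the threshold in any comparison, with 0 of 14 genes of the microglial signalling list. The median log2 fold change was 0.50 in 1b+/- against WT (13 of 14 above 0), 0.12 in 1b-/- against WT (10 of 14) and -0.29 in 1b-/- against 1b+/- (4 of 14). *Apoe*, a lipid carrier made by astrocytes and microglia that binds TREM2, was the most abundant, at 78.8 and 116 CPM in WT, 216, 81.6, 121 and 139.6 CPM in 1b+/- and 95.2 and 122 CPM in 1b-/-. Its highest value lay in 1b+/- replicate 1, where C1q was also highest. *Csf1*, a ligand of CSF1R, was at 12.6 and 15.9 CPM in WT, 16.6, 16.7, 15.5 and 15.4 CPM in 1b+/- and 23.9 and 16.5 CPM in 1b-/-. Both 1b-/- libraries lay above WT, with a log2 fold change of 0.53 (SE 0.23, 95% interval 0.023 to 1.04) and an unadjusted edgeR p of 0.042. At an unadjusted p under 0.05 by edgeR, 1 of 14 genes of the list was counted in 1b+/- against WT, *Fcer1g*, an adaptor of immune receptors (log2 fold change 1.08, p 0.0069), and 2 of 14 in 1b-/- against WT, *Csf1* and *Inpp5d*, an inositol phosphatase of myeloid cells (log2 fold change 0.71, p 0.033). The shares of all genes at that level were 4.34% and 1.64%.

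*Il34*, the neuronal ligand of the same receptor, was at 0.501 to 2.24 CPM, and *Cx3cl1*, the fractalkine ligand of CX3CR1, at 5.45 to 21.1 CPM, with log2 fold changes in 1b+/- against WT of 0.85 (95% interval -0.37 to 2.08) and 0.060 (95% interval -0.93 to 1.05). *Tyrobp*, the adaptor through which TREM2 signals, was at 0.613 to 3.56 CPM, again highest in 1b+/- replicate 1. The myeloid transcription factors *Spi1*, which encodes PU.1, and *Irf8* were at 1.07 to 2.84 and 0.662 to 2.53 CPM. Their log2 fold changes in 1b+/- against WT were 0.17 (95% interval -0.95 to 1.28) and 1.07 (95% interval -0.13 to 2.26).

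Among 17 further homeostatic microglia genes, 0 passed the threshold in any comparison of genotypes, and the median log2 fold change was 0.11 in 1b+/- and -0.041 in 1b-/- against WT. Of these genes, 12 of 17 had a positive r with *P2ry12* (median 0.44) and 10 of 17 with summed C1q (median 0.071). With the summed level of the 17, *P2ry12* had an r of 0.86, and the other 8 members had r from -0.57 (*Tmem119*) to -0.060 (*Cx3cr1*). The most abundant of the 17 was *Tgfbr1*, a TGF-beta receptor that many other cell types also express. It was at a mean of 294 CPM, where the sum ran from 429 to 624 CPM. Of 10 other complement genes tested, 0 passed, 5 of 10 were above 0 in 1b+/- against WT, and the median was -0.016, beside the positive values of the 3 C1q chains. Only 2 of these 10 had a positive r with summed C1q. *Cd93*, an endothelial and myeloid receptor, was the most abundant of that list.

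Genes of neonatal or reactive microglia had 0 of 13 past the threshold by the main test and a median log2 fold change of 0.094 in 1b+/- and -0.058 in 1b-/- against WT. Their most abundant member was the lysosomal protease *Ctsb*. In 1b+/- against WT, 8 of the 13 were above 0 and 5 below. At an unadjusted p under 0.05 by edgeR's quasi-likelihood test, 3 of 13 were counted there, against 4.34% of all genes. Of these 3, *Igf1* was higher, whereas *Lgals3* (log2 fold change -1.68) and *Cd9* (-0.34) were lower. *Igf1*, a growth factor made by neonatal microglia and by other brain cells, was named after its values were seen. It was at 26.1 and 24.5 CPM in WT, 67.2, 117, 55.7 and 44.7 CPM in 1b+/- and 29.9 and 48.8 CPM in 1b-/-, with every library with a deletion above both WT libraries. In either direction, groups did not overlap for 12.3% of all genes in 1b+/- against WT and for 23.6% in 1b-/- against WT. The log2 fold change of *Igf1* in 1b+/- against WT was 1.50 (SE 0.35), with an adjusted p of 0.385 by the quasi-likelihood test of edgeR, 0.0014 by the same test without a low-count filter, 0.012 by its likelihood ratio test and 0.0038 by DESeq2. Of 10 blood leukocyte genes and 10 inflammatory cytokine genes, 3 and 3 passed the low-count filter and 0 passed the threshold, with summed levels of at most 3.54 and 3.43 CPM in a library and *S100a8* and *Nos2* as the most abundant.

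Border macrophages of the meninges and perivascular space, which express *Csf1r*, *Cx3cr1* and the C1q genes as well, were followed by 9 tested genes led by *Mrc1*, a mannose receptor. Their summed level was 78.4 and 129.8 CPM in WT, 146 to 180 CPM in 1b+/- and 117 and 188 CPM in 1b-/-. The median log2 fold change was 0.83 in 1b+/- against WT (9 of 9 above 0) and 0.67 in 1b-/- against WT (8 of 9), and 0 of 9 passed the threshold. At an unadjusted edgeR p under 0.05, 4 of 9 were counted in 1b+/- against WT and 2 of 9 in 1b-/- against WT. The shares of all genes at that level were 4.34% and 1.64%. All 9 had a positive r with summed C1q (median 0.50), and 4 of 9 with *P2ry12*. The part of border macrophages in the C1q, *Cx3cr1* and *Csf1r* values was not tested.

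Of the lists of other cell types, meningeal fibroblast genes (led by *Igf2*) had a median log2 fold change of 0.75 in 1b+/- against WT, endothelial genes (*Kdr*) 0.26, oligodendrocyte lineage genes (*Pdgfra*) 0.29, astrocyte genes (*Slc1a3*) 0.14 and neuronal genes (*Tubb3*) -0.014, with 0 past the threshold in each by the quasi-likelihood test. Choroid plexus genes (*Ttr*) had a median of -0.50 and red cell genes (*Alas2*) of -0.53, also with 0 past it by that test. At an unadjusted p under 0.05 by the same test, 3 of 9 meningeal fibroblast, 2 of 10 endothelial and 2 of 10 oligodendrocyte lineage genes were counted. So were 2 of 9 astrocyte, 1 of 9 neuronal, 2 of 9 choroid plexus and 0 of 4 red cell genes. The share of all genes at that level was 4.34%. By the likelihood ratio test of edgeR, the endothelial transporter *Slco1a4* (log2 fold change -1.46, adjusted p 0.0065) and the choroid plexus transporter *Slc4a5* (log2 fold change -1.75, adjusted p 0.0064), both named after their values were seen, passed in 1b+/- against WT. That test passed 64 of 15588 genes there. Neither transporter passed by the quasi-likelihood test (adjusted p 0.29 and 0.38) or by DESeq2 (adjusted p 0.086 and 0.063). Regional genes had medians of -0.23 for hippocampus (*Neurod6*), -0.12 for neocortex (*Bcl11b*) and 0.069 for thalamus (*Slc17a6*), with 0 past the threshold by the quasi-likelihood test. The epithelial list (*Krt8*, *Krt19*, *Krt15*, *Krt13*, *Krt6a*, *Upk1b*, *Upk3b*, *Msln* and *Scel*, led by *Krt15*) was the exception. By the quasi-likelihood test, 9 of 9 passed the threshold and were lower in 1b+/- than in WT. This list was chosen with earlier results of these data known, so the count is no separate support for a difference. *Krt6a*, *Upk1b*, *Upk3b* and *Msln* reached 1 CPM only in WT, so they passed the low-count filter through WT alone. Over all genes, 13 passed in this comparison, including these 9. The number of epithelial genes past the threshold depended on single libraries and on the fit. It was 0 of 9 without 1b+/- replicate 3, 5 without 1b+/- replicate 1 and 3 without 1b+/- replicate 4. With sex as a covariate or in males only, 0 genes of any kind passed. The summed epithelial level was 174 CPM in WT replicate 1 and 47.5 CPM in WT replicate 2, against at most 7.68 CPM in 1b+/-. WT replicate 1 also held the lowest values of 5 microglia members.

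**Figure D5:**
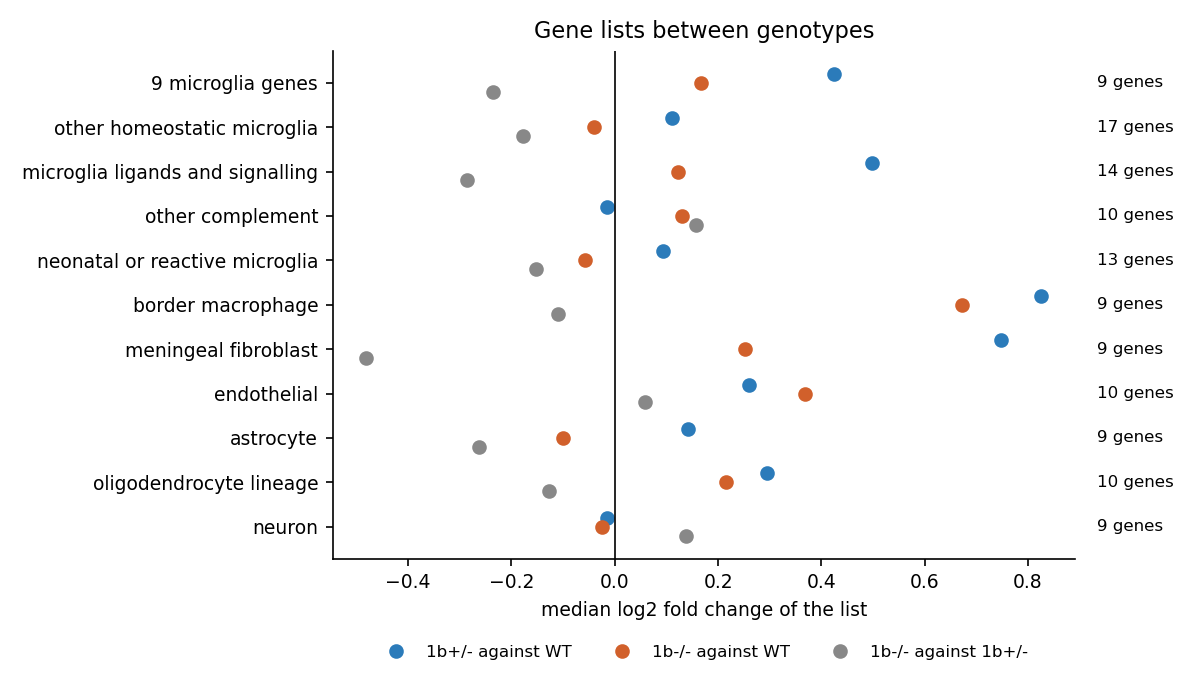
Median log2 fold change of the tested genes of each list in 3 comparisons of genotypes (colours), with the number of tested genes at the right; 0 means no difference. The 9 microglia genes sit at 0.42, 0.17 and -0.24, the border macrophage genes at 0.83, 0.67 and -0.11 and the meningeal fibroblast genes at 0.75, 0.25 and -0.48.

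Among the genes whose order over the 8 libraries was most like the summed level of the 9 members, by Pearson r among 11225 other genes with a mean of at least 5 CPM, were *Faf2* (0.97), *Zswim4* (0.95), *Pdgfra* (0.94), *Apeh* (0.93), *Thoc6* (0.93), *Efemp2* (0.93), *Itga9* (0.93), *Arpc1b* (0.93) and *Smad7* (0.93). None of these 9 was on a microglial or macrophage list, and *Pdgfra* is a marker of oligodendrocyte precursors. With 8 libraries and this many genes, high values of r occur in quantity, and the median over all these genes was 0.026. All 9 border macrophage and all 9 meningeal fibroblast genes also had a positive r with the sum, with medians of 0.54 and 0.69.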

How the data were processed

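RNA was sequenced from 8 P7 mice, 1 library each. Per the labels and methods, stranded libraries were sequenced, the authors aligned reads to mm9 with STAR 2.7.2 and counted reads on genes using featureCounts. The deposited values are raw counts per gene symbol. The annotation release and strand setting are not given in the sources used here.

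Genotype and sex came from the labels. Replicates were numbered in deposition order, which pairs no animals. Genes that reached 1 CPM in 1 or more libraries were tested in R 4.3.3 with the quasi-likelihood test of edgeR 4.0.16 (TMM scaling, genotype as factor, all 8 libraries), with Benjamini-Hochberg adjustment over all 15588 genes at 0.05. An additive fit used deleted alleles, and another divided 1b+/- by sex. P-values set a difference between groups against the spread between these animals, estimated from all 8 libraries with information shared across genes. The fit was tested on simulated data. Alternatives included DESeq2 1.42.0.

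Exonic lengths and positions came from GENCODE vM1 (mm9). Members and lists were chosen with earlier results of these data known. Named genes were the members, 7 signalling genes, each list's most abundant gene, any list gene past the threshold, and the 10 most correlated genes. Some items under this rule are not reported here. *Igf1*, *Lgals3*, *Cd9*, *Spp1*, *Fcer1g*, *Inpp5d*, *Slco1a4* and *Slc4a5* were added after their values were seen.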

Additional observations from a re-analysis of the deposited data

Results flagged for a closer look

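*Spp1*, which encodes osteopontin and is expressed by some neonatal microglia, stood apart in 1 library. It was at 32.1 CPM in 1b+/- replicate 1 and at 6.68, 6.77 and 8.0 CPM in the other 1b+/- libraries, so that the gap to the nearest library was 0.948 of the whole range, above Dixon's 95% critical value for 4 samples. WT libraries were at 7.77 and 5.98 CPM and 1b-/- libraries at 4.29 and 5.76 CPM. The same library held the highest summed C1q, *Tmem119*, *Apoe* and meningeal fibroblast levels. Of 56 measures examined within 1b+/-, 1 was flagged, where about 2.8 arise by chance.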

How the results depend on the processing

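The count of microglia members past the threshold was 0 in 5 comparisons under every alternative run, and the lowest adjusted p of a member in the 3 genotype comparisons was 0.766. Mean summed levels ran from 52.5 to 61.6 CPM in WT, 67.4 to 77.2 CPM in 1b+/- and 55.6 to 63.3 CPM in 1b-/- under other scalings or without a library. The correlation of *P2ry12* with the other 8 stayed between -0.74 and -0.40 under alternatives chosen after seeing the data. No paired analysis was possible because the labels give no shared replicate numbers.

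Of 449 log2 fold changes of members under alternatives in the 3 genotype comparisons, 23 changed sign, all of estimates that did not pass the threshold. Per deleted allele and in females against males, 37 of 270 changed sign. The median of the 9 members ran from -0.021 to 0.16 per deleted allele and from -0.41 to 0.41 in females against males with 1 library left out, and the latter was -3.2e-04 with upper quartile scaling. *Aif1* in 1b+/- against WT became 0.0026 with upper quartile scaling, and *C1qa* in 1b-/- against WT became -0.051 with sex as a covariate. With 1 library left out, values in 1b+/- against WT ran from -0.19 to 0.41 for *P2ry12*, -0.14 to 0.48 for *Csf1r*, -0.016 to 0.60 for *C1qa* and -0.40 to 0.27 for *Aif1*. For 1b-/- against WT they ran from -0.43 to 0.25 for *P2ry12*, -0.37 to 0.25 for *Csf1r*, -0.21 to 0.40 for *C1qa*, -0.62 to 0.88 for *Tmem119* and -0.31 to 0.39 for *Aif1*. For 1b-/- against 1b+/- they ran from -0.50 to 0.068 for *P2ry12*, -0.46 to 0.051 for *C1qa*, -0.28 to 0.54 for *Aif1* and -0.49 to 0.035 for *Trem2*. A lone library left in a genotype was assumed to vary like the others.

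Over all genes, the count past the threshold was 13 in 1b+/- against WT, with 57 without a filter, 64 by the likelihood ratio test, 24 by DESeq2, 0 with sex as a covariate and 0 in males only. For 1b-/- against WT it was 1, with 33 without a filter, 23 by the likelihood ratio test, 13 by DESeq2 and 15 with the compared groups only. Per deleted allele it was 6, with 24 without a filter, 3 with upper quartile scaling, 31 by the likelihood ratio test, 3 by DESeq2 and 0 with sex as a covariate. In females against males it was 5, with 85 without a filter, 20 by the likelihood ratio test and 14 by DESeq2. With 1 library left out the counts ran from 0 (without WT replicate 1) to 30 (without WT replicate 2), from 1 to 16, from 0 to 1 (1b-/- against 1b+/-), from 0 to 13 and from 5 to 46. The cause was not tested. Depth was lowest at 2947770 counts, and intervals were widest for *Tmem119*, *Trem2* and *Aif1*.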
